A study of Mus musculus with 6 samples.

Results

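Molecular chaperones of the cytosol and mitochondria were described in KPC001, a mouse pancreatic cancer cell line, by comparing its CD133+ with its CD133- cells. The set was a list of 54 genes that covers the heat shock transcription factors, the HSP70, HSP110, HSP90 and small heat shock proteins, both chaperonins, the J-domain proteins and the co-chaperones. Probes were assigned by the gene symbol of the platform annotation, which gave 97 probes for 52 of the 54 genes, out of 34885 probes with 1 symbol for 19057 genes. Hsf1 and Hsp90ab1 were not analysed here. A probe was tested if its detection p-value, the rank of its signal among the negative controls of the array, was under 0.05 on at least 3 of the 6 arrays. That held for 69 member probes of 46 genes, out of 17219 tested probes in all.

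Chaperones bind unfolded or partly folded proteins and release them in cycles driven by ATP. HSP70 works with J-domain proteins, which deliver clients and stimulate its ATPase, and with nucleotide exchange factors, which reset it, while HSP90 takes over late folding steps of kinases and hormone receptors. Chaperonins are ring-shaped chambers: TRiC, built from the Tcp1 and Cct subunits, folds actin and tubulin in the cytosol, and Hspd1 with its lid Hspe1 folds imported proteins in mitochondria. The heat shock factor Hsf1 raises the transcription of many of these genes under proteotoxic stress, and cancer cells often depend on them.

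KPC001 was derived from the KPC model, in which Cre acts in the pancreas of engineered mice and tumours form there, so both populations share this origin. The cells were grown untreated in high-glucose medium with serum, and 3 CD133+ and 3 CD133- samples were each hybridised to 1 Illumina bead array. Per the labels, group membership rests on the CD133 cell population, and the description field gives the same phrase on tumour-initiating cells to both populations. All 6 samples come from this 1 line, and the labels do not say whether replicates were separate cultures or sorts, so a p-value here reflects the variation among these arrays alone, part or all of which may be technical. In such bulk samples a different share of cells and a different amount of RNA per cell cannot be told apart.

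On each array 17123 to 18057 of the 45281 probes were detected, with a median of 37 to 41 beads behind a probe. None of the 3 probes of Prom1, the gene of CD133, was detected on any array, so the transcript does not check the labels. Of 10 ductal epithelial markers 8 were tested, among them Krt7, Krt8, Krt18, Krt19 and Cdh1, while Epcam was not detected often enough to be tested. The summed linear intensity of the ductal list was 25913 to 26697 on CD133- and 23983 to 24858 on CD133+ arrays. That of the 3 tested of 9 leukocyte markers was 1084 to 1142 and 1144 to 1311, with Ptprc among those not detected often enough to be tested. That of 2 tested of 6 fibroblast and stellate markers, Acta2 and Col1a1, was 232.2 to 245.3 and 189.5 to 232.1. Col1a2, Dcn, Lum and Pdgfrb were not detected often enough to be tested. The sums of the mesenchymal, endothelial and acinar and endocrine lists overlapped between the groups. No probe of these 6 lists passed, and the part of these shifts in the chaperone values was not tested.

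In CD133+ cells 1 probe each of 4 chaperone genes rose: Hspa8, the constitutive cytosolic HSP70, Hspd1, the mitochondrial HSP60, and the TRiC subunits Tcp1 and Cct2. The rises were 1.47-fold to 1.55-fold on the background-corrected scale, and no member probe passed as lower. These 4 of 69 member probes compare with 1.53% of all tested probes at an adjusted p under 0.05 (limma, Benjamini-Hochberg over all 17219 probes), where 1.25% passed as higher and 0.279% as lower. The probe of Cct2 was detected on 3 of 3 CD133+ but 1 of 3 CD133- arrays and so was tested through the group in which it was high, which leaves 3 probes that did not depend on this. For Hspa8, Hspd1 and Tcp1 the brightest probe of the same transcript record did not pass, at -0.06, -0.20 and 0.12, and with the tested probes of a gene averaged Cct2 was the 1 member that passed. No member probe passed when any 1 of the 6 arrays was left out or under a median shift in place of quantile normalization, although all 4 kept their direction in each of these fits. Without background correction 13 passed, 9 of them higher, where 1110 of all 17219 tested probes passed. With the authors' own intensities 12 passed, 9 of them higher, where 1157 of all 17219 passed.

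At an unadjusted p under 0.05, 11 member probes were higher and 7 lower in CD133+ cells, together 26.1% of the 69, where the share among all tested probes was 16.6% (9.08% higher and 7.52% lower). The members were chosen with earlier results of these data known, so this share is not independent of them. In the list of other chaperone genes, given below, 2 of 69 probes reached this level. The values of the groups did not overlap for 22 of the 69 probes (13 higher and 9 lower), against 23.1% of all tested probes (11.5% and 11.6%). Over the brightest tested probe of each gene, meaning the one with the highest mean log2 intensity, the median log2 difference was -0.06 for the 46 member genes and -0.03 for all 9430 tested genes. Of these 46 values 30 lay below 0, as did 58.5% of those of all genes, and 16 above. At an unadjusted p under 0.05, 4 of the 46 were higher and 5 lower, against 6.28% and 8.42% of all genes, and 1 of them, Cct2, passed the adjusted threshold, against 1.13%. Cct2 was tested through the group in which it was high, so its pass is not independent of the filter. Under a median shift these medians were -0.22 for the members and -0.16 for all genes.

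**Figure D1:**
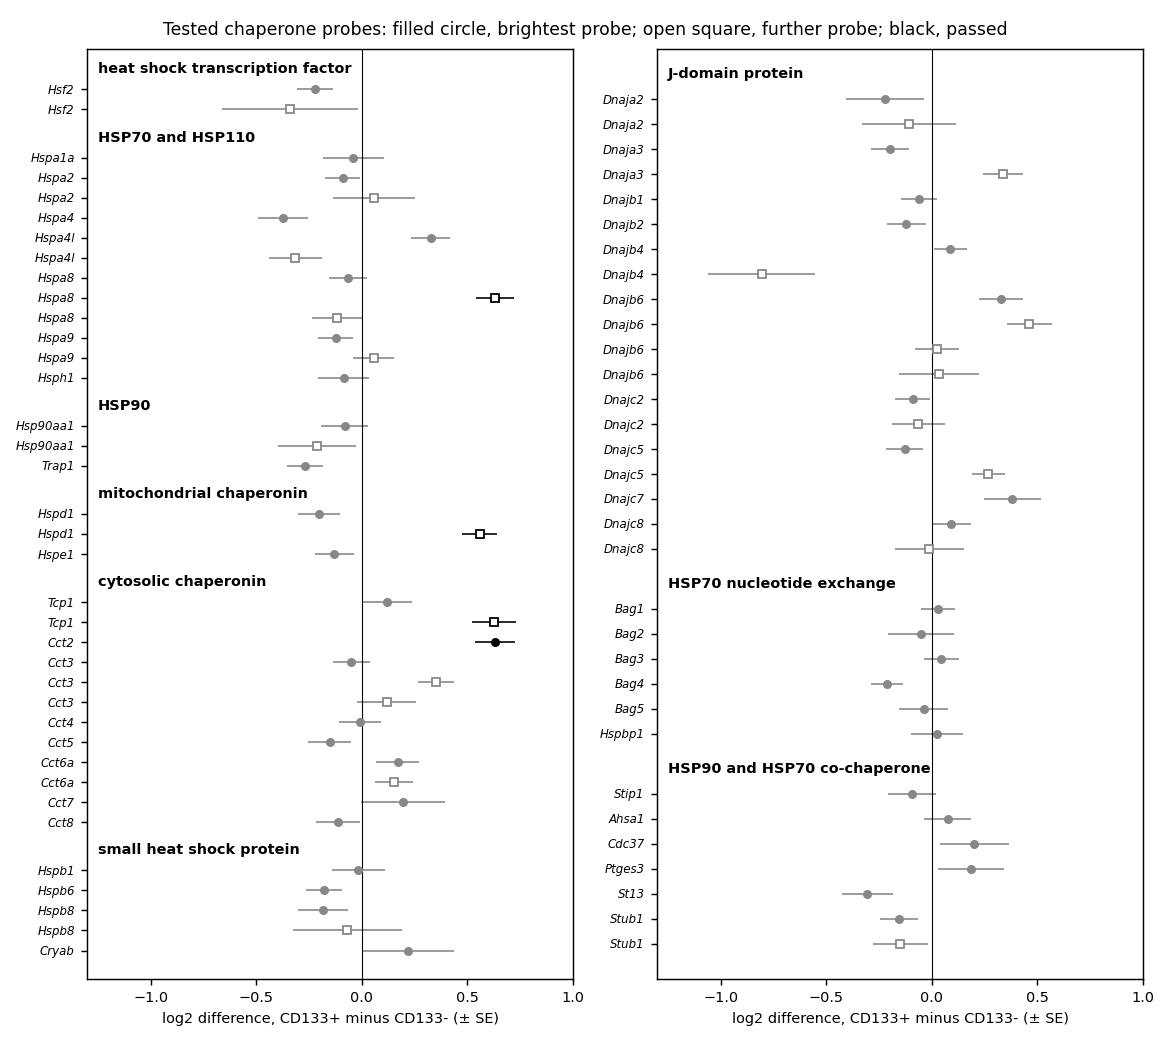
Log2 difference in intensity, CD133+ minus CD133-, with the standard error of the fit (horizontal axis) for each of the 69 tested chaperone probes (rows, grouped by role); filled circles are the brightest tested probe of a gene, open squares further probes, and black marks the 4 probes with an adjusted p under 0.05. Those 4 lie between 0.56 and 0.63, most other probes lie within 0.4 of 0 on either side, and the widest error bars belong to dim probes.

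Among the HSP70 proteins, Hspa8, which folds nascent chains and uncoats clathrin vesicles, was measured by 3 probes annotated to the same transcript record. On ILMN_2918479 the log2 intensities were 12.07, 11.99 and 11.93 on the CD133- arrays and 12.70, 12.53 and 12.65 on the CD133+ arrays. The groups lay well apart, with a difference of 0.63 ± 0.09 (SE, n = 3 per group, adjusted p = 0.0280). The brightest probe, ILMN_1246458, gave 13.48, 13.41 and 13.37 against 13.47, 13.36 and 13.25, and ILMN_1249586 gave 12.45, 12.20 and 12.03 against 12.10, 12.06 and 12.17. On both of these the groups overlapped, with differences of -0.06 ± 0.09 and -0.12 ± 0.12, and the first turned to 0.02 with the authors' intensities. Each Hspa8 value rested on at least 27 beads. In the deposited intensities, before any correction, the probe that rose averaged 4436 in CD133- and 6168 in CD133+ cells, and the brightest one 11501 and 10248.

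Hspa4l, an HSP110-type nucleotide exchange factor, had probes of opposite sign. ILMN_1240779, annotated to a cDNA record, read 7.66, 7.44 and 7.45 on the CD133- arrays and 7.89, 7.86 and 7.79 on the CD133+ arrays. ILMN_1230843, annotated to the RefSeq transcript, read 6.59, 6.63 and 6.28 against 6.15, 6.07 and 6.33. The groups were apart on the first probe and overlapped on the second, with differences of 0.33 ± 0.09 and -0.31 ± 0.12 (unadjusted p = 0.0092 and 0.0368), and neither passed. Its relative Hspa4 had -0.37 ± 0.12 on its tested probe (adjusted p = 0.182), with CD133- values of 7.55, 7.68 and 7.56 above all CD133+ values of 7.46, 7.14 and 7.08. Hsph1, the third HSP110 protein of the list, had -0.09 ± 0.12.

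The mitochondrial HSP70 Hspa9, which pulls precursors through the import channel, had -0.12 ± 0.08 and 0.06 ± 0.10 on its probes. Hspa2, best known from the testis, had -0.09 ± 0.08 and 0.06 ± 0.20. The stress-inducible Hspa1a was dim, at 5.70 ± 0.14 (SD) in CD133- and 5.66 ± 0.26 in CD133+ cells, a difference of -0.04 ± 0.14, and its sister gene Hspa1b reached detection on 2 CD133- arrays and no CD133+ array. Hspa1a and Hspa1b are nearly identical, so signal from either could reach the probes of both. Hspa12a, Hspa13 and Hspa14 were not well above background on any array by any of their 8 probes.

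Hspd1 had a bright and a dimmer probe annotated to the same transcript record, and they went apart. On the dimmer one, ILMN_2639036, the log2 intensities were 10.38, 10.24 and 10.34 in CD133- and 10.83, 10.93 and 10.88 in CD133+ cells. All CD133+ values lay above all CD133- values, with a difference of 0.56 ± 0.08 (adjusted p = 0.0311). The brighter one, ILMN_2713841, read 12.47, 12.42 and 12.41 against 12.35, 12.28 and 12.07. There every CD133- value lay above every CD133+ value, although the difference of -0.20 ± 0.10 did not pass (adjusted p = 0.360).

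Hspe1, the co-chaperonin that closes the Hspd1 ring, is transcribed from the opposite strand next to Hspd1, and the promoter region of both is shown for that reason. Its single tested probe read 10.32, 10.29 and 10.31 in CD133- and 10.06, 10.17 and 10.30 in CD133+ cells. The groups overlapped narrowly, with a difference of -0.13 ± 0.09 (adjusted p = 0.531), so the rise on the dimmer Hspd1 probe had no counterpart in a passing probe of Hspe1.

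Promoter windows from RefSeq (GRCm38.p6), from 250 bases before to 50 after a transcript start, were matched by symbol for 42 of the 54 members and searched for 3 alternating units of the heat shock element, the site bound by heat shock factors, in the order GAA, NN, TTC, NN, GAA or the order TTC, NN, GAA, NN, TTC, where N is any base. Each order is the reverse complement of the other, so both strands were searched. It was found in 6 of 58 member windows, against 0.603% of all 32851 windows, and in 4 of the 42 member genes, against 0.662% of all genes: Hspd1, Hspe1, Dnajb6 and Hsph1. They are printed 5′ to 3′ on the gene's strand with the matches in capitals, Hspd1 at chr1:55087883-55088182 (minus strand), Dnajb6 at chr5:29735648-29735947 (plus strand) and Hsph1 at chr5:149636287-149636586 (minus strand).
Hspd1: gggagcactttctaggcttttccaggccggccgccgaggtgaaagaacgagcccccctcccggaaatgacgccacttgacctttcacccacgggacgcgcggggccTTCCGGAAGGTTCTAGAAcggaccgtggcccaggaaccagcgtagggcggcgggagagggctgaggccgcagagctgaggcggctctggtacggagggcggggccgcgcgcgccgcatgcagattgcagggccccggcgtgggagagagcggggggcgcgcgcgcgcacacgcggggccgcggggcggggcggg
Dnajb6: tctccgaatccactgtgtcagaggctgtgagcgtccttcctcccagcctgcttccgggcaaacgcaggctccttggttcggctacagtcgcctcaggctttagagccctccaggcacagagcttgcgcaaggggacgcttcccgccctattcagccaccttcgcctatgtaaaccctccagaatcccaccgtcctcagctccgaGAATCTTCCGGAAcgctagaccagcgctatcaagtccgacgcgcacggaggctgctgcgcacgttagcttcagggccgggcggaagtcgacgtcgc
Hsph1: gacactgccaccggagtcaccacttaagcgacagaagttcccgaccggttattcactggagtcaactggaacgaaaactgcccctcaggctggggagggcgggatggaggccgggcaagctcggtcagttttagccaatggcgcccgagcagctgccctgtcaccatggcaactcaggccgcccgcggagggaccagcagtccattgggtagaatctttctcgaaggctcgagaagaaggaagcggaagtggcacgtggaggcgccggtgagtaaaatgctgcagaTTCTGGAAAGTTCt
The Hspd1 window held 2 matches that overlap by 8 bases. It shares 285 of its 300 bases, these matches among them, with the window of Hspe1 on the other strand. Dnajb6 and Hsph1 each had more than 1 window with the same site, so the 6 windows hold fewer than 6 separate sites. The share over all windows was likewise counted by window. Hspa8 was among the members without a window and so was not searched. Of the genes with a match Hspd1 was the 1 with a probe that passed. Its brighter probe, Hspe1 and Hsph1 had values below 0, and the 4 probes of Dnajb6 had values of 0.02 to 0.46, none of which passed. A match in these letters is a description of the window and not a measured site.

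All 8 TRiC subunits were tested, on 12 probes, of which 1 of Tcp1 and the single one of Cct2 passed, against 1.53% of all tested probes. The Cct2 probe entered the test through the group in which it was high, so only the Tcp1 probe passed independently of the filter. Tcp1, the first subunit, had 2 probes annotated to the same transcript record. The dimmer probe, ILMN_2774140, read 8.16, 8.32 and 8.20 in CD133- and 8.89, 8.69 and 8.98 in CD133+ cells, a clear separation with a difference of 0.63 ± 0.10 (adjusted p = 0.0382). The bright probe, ILMN_2677386, read 11.81, 12.00 and 11.91 against 12.24, 11.87 and 11.97. Those groups overlapped, at 0.12 ± 0.12, and the value was -0.04 under a median shift.

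Cct2 was measured by 1 probe close to background, ILMN_1218488, with 5.05, 4.79 and 4.90 in CD133- and 5.50, 5.55 and 5.57 in CD133+ cells. The groups were apart, with a difference of 0.63 ± 0.09 (adjusted p = 0.0310). The deposited mean intensities were 129.2 and 142.3, and the log2 difference was 0.18 when background correction was left out and likewise 0.18 in the authors' intensities, and it passed in neither.

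Cct3 repeated the pattern of a bright and a dimmer probe without passing. ILMN_1247317 read 10.62, 10.50 and 10.56 in CD133- and 10.95, 10.97 and 10.82 in CD133+ cells, apart by 0.35 ± 0.09 (adjusted p = 0.104), while the brightest probe gave -0.05 ± 0.09 and a probe near background 0.12 ± 0.14. Both probes of Cct6a gave similar values, 0.17 ± 0.10 and 0.15 ± 0.09. The remaining subunits had single tested probes with overlapping groups, at -0.01 ± 0.10 for Cct4, -0.15 ± 0.10 for Cct5, 0.19 ± 0.20 for Cct7 and -0.11 ± 0.10 for Cct8. Over all 12 TRiC probes the median was 0.14, and over the brightest probes of the 8 genes it was 0.06.

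**Figure D2:**
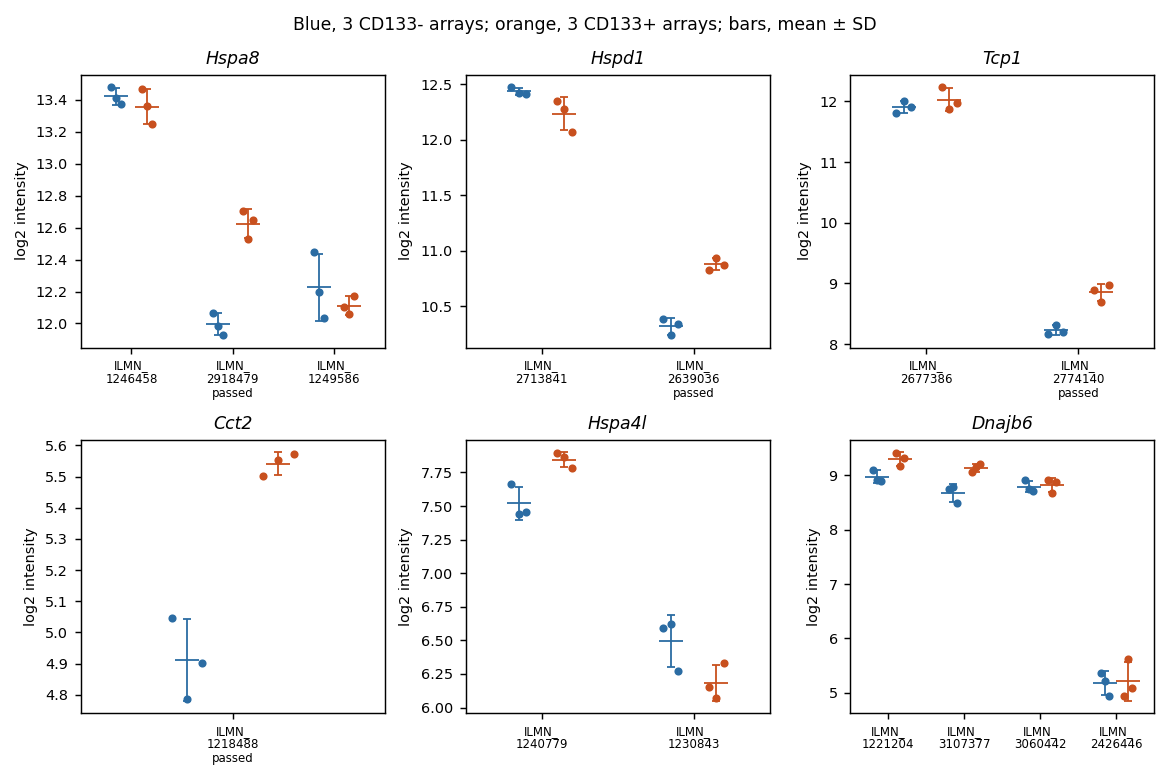
Log2 intensity (vertical axis, its range set for each gene) of every tested probe of 6 chaperone genes, with CD133- arrays in blue, CD133+ arrays in orange, and bars for the mean ± SD of 3 arrays. On the probes marked as passed the colours do not overlap, while the brighter probes of Hspa8 and Tcp1 overlap and that of Hspd1 lies lower in CD133+ cells.

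None of the 19 tested probes of J-domain proteins passed. At an unadjusted p under 0.05, 5 were higher and 1 lower, against 9.08% and 7.52% of all tested probes. Dnajb6, which keeps polyglutamine proteins from aggregating, was measured by 4 probes annotated to different transcript records. ILMN_3107377 read 8.74, 8.78 and 8.49 in CD133- and 9.05, 9.15 and 9.20 in CD133+ cells, a difference of 0.46 ± 0.11 (adjusted p = 0.0857). ILMN_1221204, the brightest, read 9.10, 8.91 and 8.89 against 9.41, 9.16 and 9.32, a difference of 0.33 ± 0.10 (adjusted p = 0.180). On both of these the groups did not overlap, and both passed when background correction was left out or the authors' intensities were used. The others gave 0.02 ± 0.10 and 0.03 ± 0.19.

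Dnajc7, a J-domain protein with TPR repeats that hands clients between HSP70 and HSP90, had 0.38 ± 0.14 on its single tested probe (8.87, 8.84 and 8.56 against 9.31, 9.20 and 8.91, apart by a narrow gap). Dnajc5, the cysteine string protein of secretory vesicles, had 0.27 ± 0.08 on a dimmer probe and -0.13 ± 0.09 on the brightest, both annotated to the same record. Dnaja3, the mitochondrial partner of Hspa9, had 0.34 ± 0.09 on a probe near background, ILMN_1244825, and -0.20 ± 0.09 on the brightest. The first value of Dnaja3 ILMN_1244825 was 0.095 when background correction was left out and 0.089 in the authors' intensities. Dnajb4 gave the lowest value of any member probe, -0.81 ± 0.25, on ILMN_2614246, which read 6.60, 6.30 and 6.16 in CD133- and 5.55, 5.02 and 6.07 in CD133+ cells. These CD133+ values were widely spread, the difference did not pass (adjusted p = 0.176), and the probe of Dnajb4 brightest over the 6 arrays, ILMN_2619611, gave 0.09 ± 0.08. On the CD133- arrays ILMN_2614246 was the brighter, at a mean of 6.35 against 6.02, so their order followed from the difference itself. For Dnajb4 ILMN_2614246 the value was -0.30 and passed when background correction was left out (adjusted p = 0.0132) and in the authors' intensities (-0.30, adjusted p = 0.0147), and it passed at -0.81 with a robust variance trend (adjusted p = 0.0102).

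The stress-responsive Dnajb1, a classical partner of HSP70 and target of Hsf1, had -0.06 ± 0.08 (10.19, 10.32 and 10.27 against 10.26, 10.20 and 10.15). The groups overlapped. The remaining tested J-domain proteins Dnaja2, Dnajb2, Dnajc2 and Dnajc8 lay between -0.22 and 0.09 on 7 probes, and Dnaja1 and Dnajb5 were not tested.

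Hsf2, a heat shock factor that acts with Hsf1, had -0.22 ± 0.09 on its brightest probe (6.42, 6.35 and 6.23 against 6.14, 6.08 and 6.11, adjusted p = 0.254). The CD133- values all lay above the CD133+ values without passing, and its further probe had -0.34 ± 0.32 with wide spread. Among the HSP90 proteins, the mitochondrial Trap1 read 9.99, 10.15 and 10.13 in CD133- and 9.80, 9.80 and 9.87 in CD133+ cells. Its groups were apart by -0.27 ± 0.09 (adjusted p = 0.182), and it passed when background correction was left out or the authors' intensities were used. The inducible cytosolic Hsp90aa1 had -0.08 ± 0.11 on its brightest probe, with overlapping groups, and -0.21 ± 0.18 on a dimmer one.

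Small heat shock proteins, which hold unfolded proteins without using ATP, gave no passing probe among 5. Hspb6 had the smallest p among them, with 11.00, 10.96 and 11.14 against 10.82, 10.84 and 10.90, groups that were apart by -0.18 ± 0.09 (adjusted p = 0.350). Hspb1, Hspb8 and Cryab lay between -0.18 and 0.22 on 4 probes. Of the nucleotide exchange factors Bag1 to Bag5 and Hspbp1, all 6 were tested on 1 probe each and none passed. Bag4 read 8.51, 8.44 and 8.50 in CD133- and 8.29, 8.23 and 8.28 in CD133+ cells, apart by -0.21 ± 0.08 (adjusted p = 0.233), and the stress-induced Bag3 had 0.05 ± 0.08.

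The co-chaperones of HSP70 and HSP90 gave no passing probe among 7. St13, which stabilises HSP70 in its ADP-bound state, had -0.31 ± 0.12 (8.82, 8.86 and 8.57 against 8.28, 8.44 and 8.61, with overlap at a single array of each group, adjusted p = 0.265). Stip1, the adaptor that bridges HSP70 and HSP90, had -0.09 ± 0.12, Ahsa1, which stimulates the HSP90 ATPase, 0.07 ± 0.11, and the kinase adaptor Cdc37 0.20 ± 0.16. The p23 protein Ptges3 had 0.18 ± 0.16, and the ubiquitin ligase Stub1 had -0.15 ± 0.09 and -0.15 ± 0.13 on its probes.

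Whether the probes of a gene differed in their response was tested on the per-array difference between a further probe and the brightest probe, for all 5322 such pairs on the array. Of the 23 member pairs 2 passed, against 1.03% of all pairs. On the Hspa8 pair the dimmer probe moved by 0.70 ± 0.13 more than the brightest (adjusted p = 0.0456), and on the Hspd1 pair by 0.76 ± 0.14 more (adjusted p = 0.0432). Both differences were of like size under every alternative, 0.63 to 0.74 for Hspa8 and 0.68 to 0.85 for Hspd1, and both passed under a median shift, while neither passed with any array left out. Taken by itself, the further probe passed in 3 of the 23, against 1.92% of all further probes, and these were the probes of Hspa8, Hspd1 and Tcp1. The pair of Tcp1 had 0.51 ± 0.14 and did not pass (adjusted p = 0.125).

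At an unadjusted p under 0.05 the member pairs numbered 9 of 23, where 16.1% of all pairs reached that level. They were the pairs of Hspa8, Hspd1 and Tcp1 and of Cct3 (0.40), Dnaja3 (0.54), Dnajc5 (0.40), Hspa4l (-0.64), Dnajb4 (-0.89) and Dnajb6 (-0.30, its probe ILMN_3060442), and 5 of the 9 joined probes annotated to the same transcript record, as did 13 of all 23. Of the 19 genes with several tested probes 13 had a brightest probe below 0, against 57.3% of such genes, and 13 of the 23 further probes lay above 0, against 52.4%. Over all pairs of the members the further probe had the more positive difference in 14 and the more negative in 9. The share over the pairs of all genes was not computed. Over all genes the median was -0.034 for the brightest and 0.015 for the further probes, but the first also covers genes with 1 tested probe. Whether the split of 14 to 9 is particular to the members therefore cannot be read from these medians. Where on the transcripts the probes lie was not used here, and brightness also depends on the probe itself, so it does not rank transcripts.

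**Figure D3:**
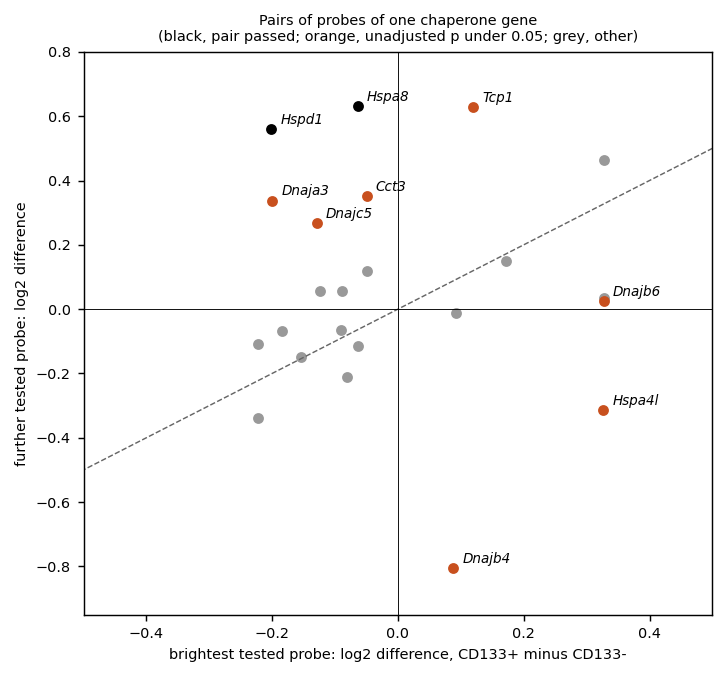
Log2 difference, CD133+ minus CD133-, of a further tested probe (vertical axis) against that of the brightest tested probe of the same gene (horizontal axis) for 23 pairs of 19 chaperone genes, with equality as the dashed line. Hspa8 and Hspd1 (black, adjusted p under 0.05 for the pair) lie above 0.5 on the vertical axis and below 0 on the horizontal axis, and orange points are the 7 other pairs at an unadjusted p under 0.05.

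Other chaperone genes, a list of 68 with prefoldins, tubulin folding cofactors, further HSP90 co-chaperones, mitochondrial proteases and further J-domain proteins, gave no passing probe among the 69 tested of 46 genes. At an unadjusted p under 0.05 there were 2 of 69, 1 in each direction, against 16.6% of all tested probes, and 1 gene of the list passed without background correction. The smallest p belonged to the brightest probe of Tbcd, a tubulin cofactor, at -0.24 ± 0.08 (adjusted p = 0.193), and to a further probe of Naca, which binds nascent chains at the ribosome, at 0.28 ± 0.10 (adjusted p = 0.236). The brightest probe of Naca gave -0.001 ± 0.10 and its other further probe 0.15 ± 0.10, all annotated to the same transcript record. The further probe of Tbcd gave -0.11 ± 0.17. Over the brightest probes of the 46 genes the median was -0.01.

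**Figure D4:**
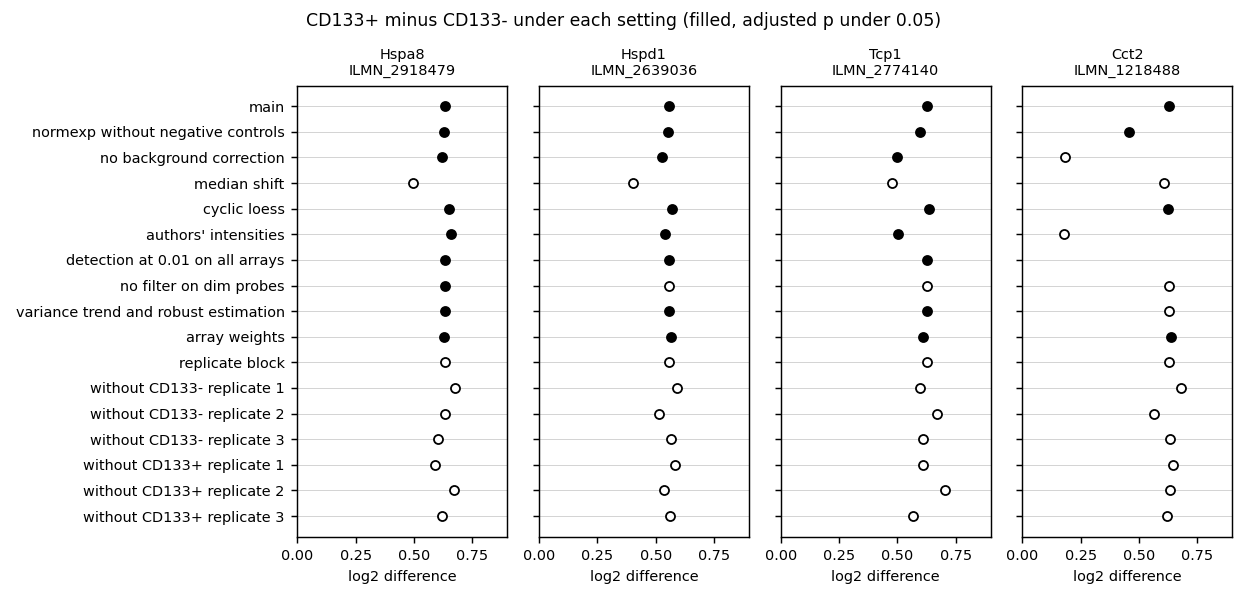
Log2 difference, CD133+ minus CD133- (horizontal axis), of the 4 chaperone probes that passed, under each processing setting (rows), filled where the adjusted p was under 0.05. Hspa8, Hspd1 and Tcp1 stay between 0.40 and 0.71 in all settings shown, while Cct2 falls to 0.18 when background correction is left out or the authors' intensities are used, and no point is filled with an array left out. Cct2 has no point at detection under 0.01 on all arrays, where it was not tested.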

How the data were processed

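The deposited table gave, per the file headers, a mean bead intensity, its standard error, a bead number and a detection p-value for each probe and array. Its intensities had unequal medians between arrays and were taken as not yet normalized. The authors also deposited a table of processed intensities on a linear scale. Its method, slides and scan dates are not given in the sources used here. limma 3.58.1 (R 4.3.3) corrected background by the normal-exponential model of neqc (offset 16), which took the negative controls from the detection p-values, and applied quantile normalization and log2. The offset by itself shrinks the differences of dim probes. Against uncorrected intensities, however, the correction as used gave larger differences for some dim probes, as for Cct2 (0.63 against 0.18). Probes with a detection p-value under 0.05 on at least 3 of 6 arrays entered a two-sided lmFit and eBayes fit without covariates and passed at a Benjamini-Hochberg adjusted p under 0.05. Precision is limited by the number of arrays, and the median standard error was 0.11. Both fits were tested on simulated data with known changes and independent noise for each probe and array. That does not bear on pairing, normalization or whether replicates were technical. Gene symbols are those of the platform annotation and may be outdated: 34885 probes had 1 symbol, 18 several and 10378 were not listed.

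Arrays were grouped by the cell population in their titles. Replicate numbers were not taken to pair samples. Members and lists were chosen with earlier results of these data known. Values in every array were to be given for members with a passing probe or pair or with probes that pointed in opposite directions at an unadjusted p under 0.05, for the member with the smallest p of each role, and for Hspe1. The other members named with array values were chosen after their values were seen. Alternatives covered background, normalization, filter, variance model, array weights, starting table, the replicate block and leaving out each array.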

Additional observations from a re-analysis of the deposited data

How the results depend on the processing

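The 4 member probes that passed became 13 when background correction was left out, 12 in the authors' intensities, 12 with a robust variance trend, 1 without a filter on dim probes, 1 with probes of a gene averaged, 1 with the brightest probe of each gene (chosen after seeing the data) and 0 with a median shift. Over all tested probes the count of 264 became 1110, 1157 and 1095 in the first 3 of these settings, 113 without a filter, 37 with a median shift, 358 with normal-exponential correction without negative controls and 554 with detection at 0.01 on all arrays. In all of those first 3 the passing probes of Hspa8, Hspd1 and Tcp1 passed, as did Dnajc7, St13 and Trap1. Cct3 ILMN_1247317, Dnajb4 ILMN_2614246, Dnajb6 ILMN_1221204 and ILMN_3107377 and Dnajc5 ILMN_2671708 passed in all 3 as well. Hspa4 passed without background correction and with a robust variance trend, and Cct2 in none of the 3. With any array left out 0 member probes, 0 member pairs and 7 to 14 probes in all passed, in fits with fewer samples. With the replicate number as a block 0 member probes, 6 probes in all and 0 member pairs passed. The labels do not say whether the numbers pair the samples. Deviations of same-numbered arrays correlated at 0.0018 to 0.020 and those of differently numbered arrays at -0.050 to 0.033, which cannot settle the pairing. The 2 member pairs became 7 when background correction was left out, 7 in the authors' intensities, 3 with detection at 0.01 on all arrays and 0 without a filter. Over all genes the 55 of 5322 pairs that passed became 349, 343, 134 of 3719 and 9 of 15828 in these settings. In the list of other chaperones 1 gene passed when background correction was left out, in the authors' intensities and with a robust variance trend. The members' median of -0.06 was -0.22 with a median shift and -0.09 to -0.04 with an array left out. Apart from fewer samples or another number of probes tested, the cause was not tested.

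No member probe that passed changed direction in any setting. Values near 0 did. With a median shift the value was -0.0225 for Hspa2 ILMN_3140383, -0.10 for Hspa9 ILMN_1222803, -0.0379 for Tcp1 ILMN_2677386, -0.0203 for Cct6a ILMN_2774941, -0.13 for Dnajb6 ILMN_3060442, -0.00048 for Dnajb6 ILMN_2426446, -0.0538 for Dnajc8 ILMN_2775146, -0.14 for Bag1 ILMN_2712018, -0.12 for Bag3 ILMN_1226195, -0.0956 for Hspbp1 ILMN_2680463 and -0.0839 for Ahsa1 ILMN_2675072. In the authors' intensities it was 0.0162 for Hspa8 ILMN_1246458, 0.0305 for Cct4 ILMN_2663186, 0.00809 for Hspb1 ILMN_2706269 and 0.00883 for Dnajc8 ILMN_2948465. With array weights it was 0.00419 for Dnajc8 ILMN_2948465. With cyclic loess it was 0.00755 for Cct4 ILMN_2663186. With normal-exponential correction without negative controls it was 0.000582 for Hspb8 ILMN_2944366. With an array left out the values spanned -0.12 to 0.11 for Hspb1 ILMN_2706269, -0.31 to 0.0848 for Hspb8 ILMN_2944366, -0.28 to 0.12 for Dnaja2 ILMN_3003324, -0.14 to 0.13 for Dnajc8 ILMN_2948465, -0.19 to 0.0489 for Bag2 ILMN_1234419, -0.13 to 0.0717 for Bag5 ILMN_3106819, -0.0807 to 0.11 for Hspbp1 ILMN_2680463 and -0.18 to 0.0711 for Hspa1a ILMN_2829594. They spanned -0.0806 to 0.28 for Hspa2 ILMN_3140383, -0.0261 to 0.11 for Hspa9 ILMN_1222803, -0.0124 to 0.17 for Ahsa1 ILMN_2675072, -0.0689 to 0.0782 for Cct4 ILMN_2663186, -0.0221 to 0.097 for Dnajb6 ILMN_3060442, -0.17 to 0.17 for Dnajb6 ILMN_2426446, -0.15 to 0.0414 for Dnajc2 ILMN_1233931 and -0.17 to 0.0209 for Stip1 ILMN_2603953.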
